A study of Mus musculus with 173 samples.

Results

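The genes described here are 33 genes of microglia and macrophages, chosen by symbol out of the 38561 genes counted in a survey of 11 tissues of Q175 mice. All 33 were found in the deposited tables by their Ensembl identifiers. Q175 mice model Huntington's disease: they carry 1 knock-in huntingtin allele with a run of 175 CAG codons and 1 normal allele. The 16 mice were C57BL/6, aged 6 months, 8 heterozygous Q175 mice and 8 wild type (WT) mice, with 4 females and 4 males in each genotype. PolyA RNA was sequenced from brown adipose tissue, the white adipose tissue around the gonad and around the intestine, brainstem, cerebellum, hippocampus, hypothalamus/thalamus, corpus callosum, gastrocnemius muscle, heart and skin. Each tissue has 8 Q175 and 8 WT libraries, except gonadal adipose with 7 WT libraries (3 female, 4 male) and skin with 6 WT libraries (3 female, 3 male). The series calls the wild types littermates, while the sample labels house Q175 mice with Q175 mice and wild types with mice of the Q20 line, so genotype, housing and colony cannot be told apart. No tissue was sorted by cell type: in bulk RNA, fewer cells of a type and less RNA per cell cannot be told apart.

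Microglia are the resident macrophages of the brain, and related macrophages live in every other tissue. Both lineages depend on signalling through the receptor Csf1r and on the transcription factor PU.1, the product of Spi1. Resting microglia carry purine and chemokine receptors (P2ry12, P2ry13, Cx3cr1) and produce the C1q subunits that start the classical complement cascade. Trem2, a lipid-sensing receptor, signals through its adaptor Tyrobp and is needed for the reactive state in which microglia of diseased or demyelinated tissue express Itgax (CD11c).

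The 33 genes were ordered by role. The homeostatic microglial group holds Tmem119, P2ry12, P2ry13, Cx3cr1, Siglech, Sall1, Gpr34, Fcrls and Olfml3. The growth factor receptor Csf1r stands with the transcription factors Spi1 and Irf8, and Trem2 with Tyrobp. The 3 complement genes are C1qa, C1qb and C1qc. The surface receptors are Itgam, Itgax, Ptprc, Cd14, Cd86, Fcgr1 and Fcgr3, and the lysosomal and cytoplasmic products are Aif1, Cd68, Ctss, Laptm5, Lyz2 and Lgals3. Mrc1, Adgre1 and Cd163 are markers of tissue macrophages.

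PU.1 sites are a known feature of myeloid promoters. Promoter sequence is shown for the genes called in brown adipose that the RefSeq promoter table holds (C1qa is not in it) and for Itgax, the gene with the largest called difference in brain. In the RefSeq promoter table (build GRCm38.p6), 24 of the 33 genes were found. GAGGAA, a core of the PU.1 site chosen after the values were seen, was searched on both strands of the 250 bases before each start. It stood in 15 of 29 promoters of these genes, from 14 genes, and in 23.3% of all 32851 promoters in the table. The longer form GAGGAAGT contains that core and was found in 1 of the 29, that of C1qc, and in 2.44% of all promoters. The composite element of PU.1 and an IRF factor was found in 0 of the 29 and in 2.3% of all promoters. In the sequences below, written 5′ to 3′ along each gene, capitals mark GAGGAA or its reverse complement. A match describes the letters only.
Fcrls, chr3:87263525-87263774, minus strand: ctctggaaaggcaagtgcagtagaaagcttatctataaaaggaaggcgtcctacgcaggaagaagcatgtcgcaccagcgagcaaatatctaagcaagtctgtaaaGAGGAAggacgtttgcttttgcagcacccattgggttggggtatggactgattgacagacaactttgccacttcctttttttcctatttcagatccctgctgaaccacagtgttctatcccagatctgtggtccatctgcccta
C1qb, chr4:136886201-136886450, minus strand: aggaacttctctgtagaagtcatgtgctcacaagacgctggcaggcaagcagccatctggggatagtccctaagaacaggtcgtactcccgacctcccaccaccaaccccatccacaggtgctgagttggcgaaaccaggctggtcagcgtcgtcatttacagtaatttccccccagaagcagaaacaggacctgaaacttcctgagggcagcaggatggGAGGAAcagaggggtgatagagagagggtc
C1qc, chr4:136892915-136893164, minus strand: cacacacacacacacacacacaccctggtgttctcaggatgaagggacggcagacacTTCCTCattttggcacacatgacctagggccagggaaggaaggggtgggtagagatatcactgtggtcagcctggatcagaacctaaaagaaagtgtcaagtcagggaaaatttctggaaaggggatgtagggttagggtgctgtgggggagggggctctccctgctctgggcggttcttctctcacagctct
Cd163, chr6:124304401-124304650, plus strand: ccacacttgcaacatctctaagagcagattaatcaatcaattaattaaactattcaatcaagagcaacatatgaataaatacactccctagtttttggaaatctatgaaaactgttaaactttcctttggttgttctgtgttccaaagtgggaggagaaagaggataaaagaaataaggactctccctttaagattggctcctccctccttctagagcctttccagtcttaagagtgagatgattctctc
Itgax, chr7:128129300-128129549, plus strand: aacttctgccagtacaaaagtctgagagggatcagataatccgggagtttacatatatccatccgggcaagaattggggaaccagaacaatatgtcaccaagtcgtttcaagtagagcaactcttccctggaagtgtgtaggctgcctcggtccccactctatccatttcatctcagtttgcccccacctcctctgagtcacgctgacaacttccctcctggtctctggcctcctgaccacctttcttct
The match begins 144 bases before the start in Fcrls, 30 in C1qb and 193 in C1qc, and the windows of Cd163 and Itgax hold none. C1qb and C1qc lie beside each other on chromosome 4.

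Library totals were 28 to 48 M estimated counts (median 35.2 M). Htt, the modified gene, had a lower estimate in Q175 in each of the 11 tissues, and the difference passed the test in 4 of them: gastrocnemius, heart, cerebellum and hippocampus. Markers of the labelled tissues were present: summed brown adipocyte genes gave 3070 to 5590 CPM in WT brown adipose against 9.21 to 50.2 in gonadal adipose, and summed oligodendrocyte genes 30700 to 68300 CPM in WT corpus callosum against 4390 to 5300 in cerebellum. Differences below are log2 fold changes of Q175 over WT from edgeR's quasi-likelihood test with sex as a term. The test gives no standard error, so the one shown was worked out as the estimate over the square root of F. The same was done for the WT tissue contrasts. A gene was called at a Benjamini-Hochberg adjusted p under 0.05 over all genes tested in the tissue. CPM is the count scaled to a common library total (TMM scaled for single genes, plain for sums of a list), and FPKM is also divided by gene length.

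Wild type levels were compared first between brain and peripheral tissues. In bulk tissue such a difference also depends on the cells each tissue holds. It does not say which cell type a gene marks. Between the mean of the 5 brain regions and the mean of the 6 peripheral tissues, 9 of the 33 genes were called higher in brain, 22 lower and 2 in neither direction, where 89.2% of all genes tested were called. The median difference of the 33 was -1.04 on the log2 scale, and that of all genes was -0.11. The genes higher in brain were 7 homeostatic genes (Sall1, Cx3cr1, P2ry12, Siglech, P2ry13, Gpr34, Tmem119), Trem2 and Ctss. Itgam and Olfml3 were called in neither direction (0.07 ± 0.083, adjusted p = 0.455, and 0.01 ± 0.076, adjusted p = 0.960).

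Sall1, a zinc finger transcription factor of microglial identity, had the largest brain difference (7.41 ± 0.22, adjusted p = 3.20e-44). Its WT mean was 13.8 FPKM ± 2.08 (SD, n = 8) in corpus callosum, 8.05 ± 1.0 in brainstem and 2.20 ± 0.263 in cerebellum. The highest peripheral mean was 0.253 FPKM ± 0.0863 in heart. Cx3cr1, the fractalkine receptor, followed at 3.69 ± 0.099, and P2ry12, the ADP receptor that steers microglial processes, at 3.02 ± 0.085.

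Several genes used to name microglia were not low outside the brain. Tmem119, a membrane protein used as a microglial marker, averaged 11.6 FPKM ± 0.949 in corpus callosum, 8.62 ± 6.68 in intestinal adipose and 8.18 ± 4.81 in gonadal adipose (n = 7). The ranges of those 3 tissues overlapped. Siglech, also a marker of plasmacytoid dendritic cells, was highest in intestinal adipose (16 FPKM ± 12.6) and second in corpus callosum (11.4 ± 1.14). Fcrls was highest in skin (14.8 FPKM), P2ry13 in intestinal adipose (12.2 FPKM), and Olfml3 ranged only from 1.02 FPKM in brown adipose to 7.02 in corpus callosum.

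At the other end, Lgals3 (galectin-3), Lyz2 (lysozyme), Cd163 (the haemoglobin scavenger receptor) and Mrc1 (the mannose receptor) were the most peripheral. Their brain differences were -5.14 ± 0.13, -5.11 ± 0.11, -4.96 ± 0.13 and -4.79 ± 0.11. Lgals3 averaged 728 FPKM ± 62.4 in skin (n = 6), where keratinocytes also express it, against 0.614 ± 0.188 in hippocampus. Lyz2 averaged 985 FPKM ± 465 in intestinal adipose and 4.91 ± 0.787 in hippocampus. Itgax was low in every brain region, from 0.0715 FPKM in hippocampus to 0.251 in corpus callosum, and reached 7.76 ± 3.67 in intestinal adipose.

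The 3 C1q genes kept the same order of tissues at both ends, highest in intestinal adipose (C1qa 148, C1qb 146 and C1qc 114 FPKM) and lowest in gastrocnemius (7.16, 7.44 and 6.36). For the remaining genes the WT means spanned the following FPKM. Csf1r ran from 3.19 to 74.6, Spi1 from 0.572 to 25.9 and Irf8 from 0.711 to 62.7. Trem2 ran from 0.190 to 12.6 and Tyrobp from 4.16 to 113. Among receptors the ranges were 0.666 to 10.7 for Itgam, 0.561 to 121 for Ptprc, 0.607 to 9.88 for Cd14, 0.311 to 15.5 for Cd86, 0.196 to 3.01 for Fcgr1 and 2.38 to 29.6 for Fcgr3. The lysosomal and cytoplasmic products Ctss (3.73 to 218), Aif1 (0.451 to 44.5), Laptm5 (1.92 to 157) and Cd68 (2.49 to 37.2) all had their lowest mean in gastrocnemius and their highest in intestinal adipose. Adgre1 ran from 0.767 in cerebellum to 14.9 in intestinal adipose, and Gpr34 from 0.283 in gastrocnemius to 10.1 in corpus callosum.

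**Figure D1:**
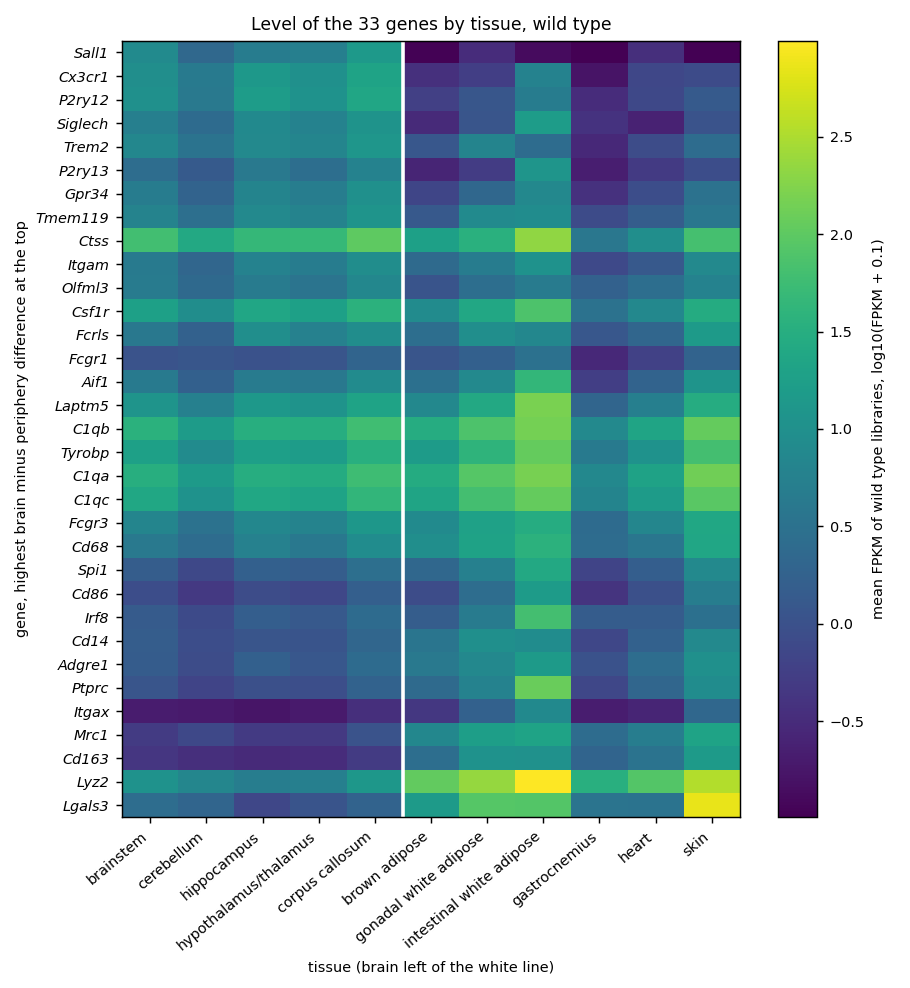
Mean FPKM of the WT libraries of each tissue (columns, brain regions left of the white line) for the 33 genes (rows, ordered by the brain minus periphery difference), as log10 of FPKM plus 0.1. Sall1 is dark in each peripheral column, where its mean is at most 0.253 FPKM, while Lyz2 reaches 985 FPKM in intestinal adipose and Lgals3 728 in skin.

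In intestinal adipose the high WT levels stood beside lymphocyte transcripts, whose summed CPM over 14 genes ran from 124 to 2240 in WT and from 31.9 to 2660 in Q175 libraries. Dendritic cell transcripts there summed to 1180 to 4820 CPM in WT. Their part in the levels of the 33 genes was not tested.

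Within the brain the corpus callosum, a white matter tract, stood above the other regions. All 33 genes were called between the 5 regions, where 97.6% of all genes were. Against the mean of the other 4 regions, corpus callosum was higher for 33 of 33 genes (78.3% of all genes were called in either direction), with a median of 1.26 against 0.03 for all genes. The differences ran from 0.45 ± 0.17 for Lgals3 to 1.69 ± 0.059 for Sall1. Cerebellum was lower for 28 genes and higher for 1, Lgals3 (81.2% of all genes called), with a median of -1.36. Hippocampus was higher for 21 genes and lower for 6 (74.0%), with a median of 0.27, and Fcrls stood out there at 1.22. Hypothalamus/thalamus was lower for 22 genes and higher for 1, Fcrls (68.3%), with a median of -0.20. Brainstem was higher for 8 and lower for 10 (72%), with Lgals3 1.07 and Sall1 0.59 above the other regions.

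Genotype differences were then tested tissue by tissue. The direction and number of called genes differed widely between tissues. So did the share of all genes called, from 0% in intestinal adipose to 32.1% in gonadal adipose. In gonadal white adipose 24 of 33 genes rose in Q175 (15.4% of all genes) and none fell. In brown adipose 5 of 31 tested fell (4.85% of all genes) and none rose. Across the 5 brain regions and skin, 1 or 2 genes rose at most per tissue, where 0.0544% (corpus callosum) to 16.1% (cerebellum) of all genes were called. A test of the tissue-by-genotype terms over all libraries called 22 of the 33 genes, where 45.4% of all genes were called. The smallest adjusted p-values were those of Olfml3 (4.11e-09), Fcgr3 (1.31e-06) and Csf1r (8.63e-06). In no tissue did the genotype effect on any of these genes differ between sexes at an adjusted p under 0.05, a test that called 37 genes of the genome in gonadal adipose and 0 elsewhere.

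**Figure D2:**
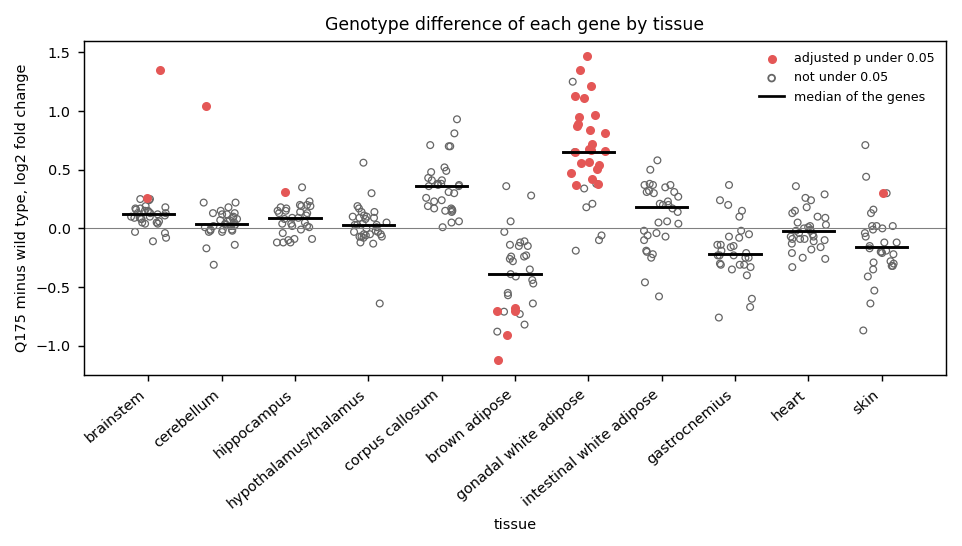
Log2 fold change of Q175 over WT (vertical axis) for each of the 33 genes that was tested, by tissue (horizontal axis). Filled points had an adjusted p under 0.05, open points did not, and the bar is the median of the genes. Gonadal adipose has 24 filled points above 0 and brown adipose 5 below 0.

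In gonadal white adipose, each role group held genes that rose. Of all genes tested there, 32.1% were called in either direction and 15.4% were called higher in Q175, against 24 of 33 here. The median was 0.65, against 0.02 for all genes. The groups gave 6 of 9 homeostatic genes, Csf1r with Spi1 and Irf8 (3 of 3), Tyrobp but not Trem2, all 3 C1q genes, 4 of 7 surface receptors, 4 of 6 lysosomal and cytoplasmic products, and all 3 tissue macrophage genes.

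Olfml3, a secreted protein of microglia and stromal cells, lay at 11.6 to 56 CPM (median 22.3) in Q175 and at 4.61 to 13.7 (median 11.5) in WT. Of the 8 Q175 libraries, 7 were above every WT library, and Q175 male 1 was the highest. The difference was 1.35 ± 0.23 (adjusted p = 0.00143).

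P2ry13, an ADP receptor, lay at 2.46 to 3.59 CPM (median 3.04) in Q175 and at 0.668 to 2.27 (median 0.875) in WT. All 8 Q175 libraries were above all 7 WT libraries, and the difference was 1.47 ± 0.26 (adjusted p = 0.00178). Its neighbour receptor P2ry12 lay at 4.31 to 6.11 CPM (median 5.14) against 1.21 to 4.59 (median 1.88). There 6 Q175 libraries were above the WT range, with a difference of 1.11 ± 0.21 (adjusted p = 0.00242). Gpr34, a lysophosphatidylserine receptor, was 5.24 to 9.72 CPM (median 7.70) against 3.11 to 5.90 (median 4.13), 0.81 ± 0.16 higher.

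Ptprc (CD45, on all white blood cells) lay at 36.9 to 53.4 CPM (median 43.7) in Q175 and 18.1 to 38.9 (median 27.1) in WT, a difference of 0.68 ± 0.13 (adjusted p = 0.00218), with 5 Q175 libraries above the WT range. Itgam (CD11b) lay at 36.3 to 61.9 CPM (median 46.3) against 9.30 to 47 (median 16.7), a difference of 1.21 ± 0.25 (adjusted p = 0.00330). The groups overlapped for Itgam through 1 WT library, male 3, at 47 CPM, the others being at or below 22.4.

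The other called genes had differences from 0.37 (Irf8) to 1.13 (Cd163). Csf1r, the growth factor receptor, was 0.89 ± 0.18 higher, and its medians were 196 and 89.4 CPM. The resident macrophage genes Cd163, Adgre1 and Mrc1 were 1.13, 0.97 and 0.87 higher. C1qa, C1qb and C1qc were 0.42, 0.56 and 0.54 higher, with overlapping groups. The 9 genes not called were Trem2 (-0.06 ± 0.37), Aif1 (-0.10 ± 0.18), Lgals3 (-0.19 ± 0.10), Tmem119 (0.18 ± 0.31), Cd14 (0.21 ± 0.13), Itgax (0.34 ± 0.23), Fcgr1 (0.38 ± 0.16), Cx3cr1 (0.65 ± 0.27) and Sall1 (1.25 ± 0.74).

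Genes that work with these in the same cells were read from lists. Of 15 genes of signalling below Trem2 and Csf1r, 11 rose and none fell, among them Ptpn6 (0.90 ± 0.13), Pik3cg (0.99 ± 0.15) and Pik3ap1 (1.11 ± 0.17). Of 14 further markers of resident macrophages, 11 rose and none fell, led by F13a1 (1.06 ± 0.23), Vsig4 (1.09 ± 0.26) and Stab1 (0.73 ± 0.17). Of 16 further homeostatic microglial genes tested, 8 rose and 1 fell, and Cd33, a sialic acid receptor, was 1.15 ± 0.19 higher. Of 10 monocyte genes, 4 rose and none fell, including the chemokine receptor Ccr2 (0.84 ± 0.15). The complement list gave 8 higher and 1 lower of 14. Markers of lipid-laden macrophages were mixed, 2 higher and 2 lower of 9, with Plin2 (-0.49 ± 0.098) and Fabp5 (-0.75 ± 0.16), both also adipocyte genes, lower. Of 21 genes of the disease-associated state, 6 rose and 2 fell, and of 13 cytokines and inflammatory enzymes 1 rose, Ptgs2. Its values were very uneven, 1.16 to 1270 CPM (median 2.17) in Q175 and 0.326 to 2.37 (median 0.591) in WT. Of the 8 Q175 libraries, 4 were above the WT range. Cd52, 1 of the disease-associated genes that rose, was also uneven, at 11.8 to 431 CPM (median 17.5) in Q175 and at most 13.5 in WT. Epididymal transcripts, given below, were high in only some Q175 libraries too. Their part in Ptgs2 and Cd52 was not tested.

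Transcripts of other cells moved with this difference. The summed CPM of the 33 genes was 1890 to 2350 in Q175 and at most 1990 in WT, and that of 9 fibroblast genes was 3960 to 5710 and 1850 to 4460. Fibroblast genes were called higher in 6 of 9 cases and mast cell genes in 5 of 6. Adipocyte genes gave 15000 to 26000 CPM in Q175 and 19100 to 25400 in WT, with 1 gene higher and 3 lower of 7. The trend of each library's levels with gene length, a measure that can move with RNA quality, also split by genotype: its slope (log2 per doubling of length) was -0.112 to 0.123 in Q175, above 0 in 7 of 8 libraries, and -0.140 to 0.0322 in WT, below 0 in 6 of 7, with WT male 3 the exception. With that trend removed 22 of 33 genes were called. Epididymal transcripts summed to 114 to 3400 CPM in the 4 Q175 males and to at most 4.40 in every other library. With the summed fibroblast transcripts as a term, 0 of 33 genes were called (median 0.15) and 0 genes of the genome. With the adipocyte sum as a term, 4 were called: Olfml3, P2ry13, P2ry12 and Gpr34. In females alone 13 genes rose (median 0.87), and in males alone 2, Olfml3 and Cx3cr1 (median 0.38). Fits of 1 sex hold fewer libraries, and the share of all genes called in them is not given here. Their 2 counts therefore do not compare the sexes. That share is also not given for the fits with the length trend removed and with the adipocyte term. The counts of those fits cannot be read as particular to these genes. The part of other cells and of the length trend in the result was otherwise not tested.

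In brown adipose the called genes were lower in Q175. Of all genes tested 5.41% were called, 4.85% as lower, and here 5 of 31 tested genes fell and none rose. Sall1 and Siglech were too low to be tested. The median was -0.39, against -0.01 for all genes, with 28 of 31 estimates below 0. These estimates come from the same libraries and are not independent. The genes that fell were Fcrls, Cd163 and the 3 C1q genes, each of which rose in gonadal adipose, and the tissue-by-genotype test called all 5.

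Fcrls, an Fc receptor-like gene of resident macrophages, lay at 2.44 to 4.34 CPM (median 3.08) in Q175 and at 3.93 to 6.71 (median 6.23) in WT. Of the 8 Q175 libraries, 7 were below every WT library. The difference was -0.91 ± 0.14 (adjusted p = 0.0114).

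C1qa lay at 11.6 to 28.6 CPM (median 16.9) in Q175 and 16.3 to 36 (median 32.3) in WT, a difference of -0.68 ± 0.15 (adjusted p = 0.0157). C1qb was 10.5 to 36.8 CPM (median 18.2) against 18 to 39.8 (median 33.4), and C1qc 8.83 to 27.4 (median 15) against 14 to 34.2 (median 28.8). Both differed by -0.70 ± 0.18 (adjusted p = 0.0324 and 0.0326). For each of the 3 subunits, 4 Q175 libraries were below the WT range and the rest overlapped with it. Cd163 lay at 2.86 to 11.2 CPM (median 4.07) against 6.69 to 17.5 (median 12), a difference of -1.12 ± 0.28 (adjusted p = 0.0259).

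**Figure D3:**
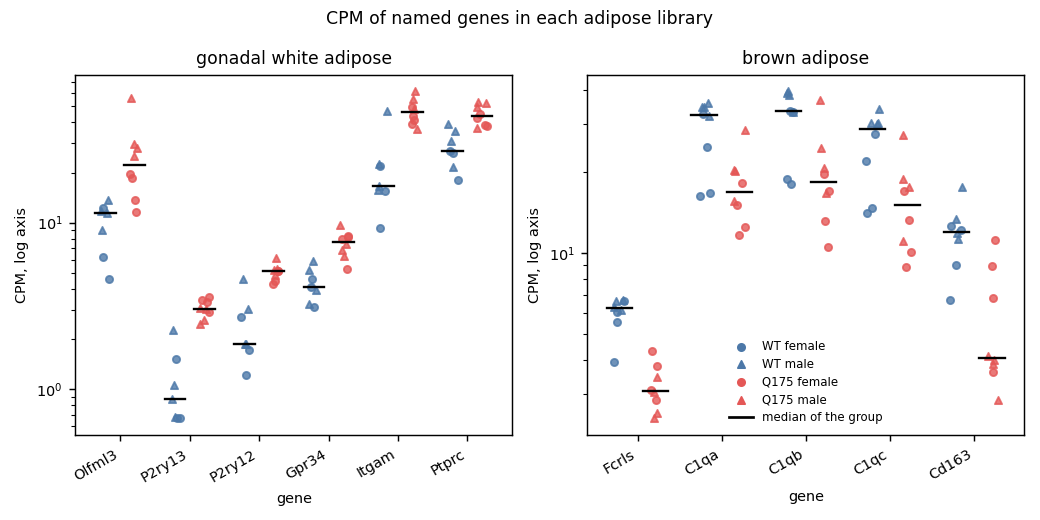
CPM (log axis) of the genes named for gonadal white adipose (left) and brown adipose (right), with 1 point per library, circles for females, triangles for males and bars at the group medians. P2ry13 shows no overlap between genotypes in gonadal adipose, and 7 of 8 Q175 libraries lie below all WT libraries for Fcrls in brown adipose.

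Some related lists held genes that fell and others did not. Of 13 further resident macrophage genes tested, 6 fell, including Folr2 (-1.47 ± 0.27), Clec10a (-1.16 ± 0.21) and Maf (-0.94 ± 0.20). Of 14 complement genes 6 fell, including Serping1 (-0.97 ± 0.17). Of 20 disease-associated genes 3 fell, and of 16 further homeostatic genes 1. None of 14 genes of Trem2 and Csf1r signalling, 9 monocyte genes or 11 cytokine genes was called. Of 9 genes of lipid-laden macrophages 1 was called, Abcg1, which rose (0.50 ± 0.13). Fibroblast genes fell in 6 of 9 cases, and their sum was 355 to 1080 CPM in Q175 against 532 to 1570 in WT. Mast cell genes fell in 4 of 5. The length slope was above 0 in 2 of 8 Q175 and in 7 of 8 WT libraries. Skeletal muscle transcripts had sums of 3.55 to 689 CPM in Q175 and of 18.6 to 14100 in WT, and with that sum as a term 0 of the 31 genes were called, although the median was -0.81. One library, Q175 male 4, had a summed CPM of the 33 genes of 999, while the other Q175 libraries had 145 to 382. Without it 12 genes fell, and without WT female 1 it was 8. The count was 3 without Q175 female 2 or 3, WT female 2 or WT male 2. The count fell to 2 without any of 5 other libraries (Q175 males 1, 2 and 3, WT female 3 and WT male 4), to 0 in females alone and to 2 in males alone, Fcrls and Cd163. Shares of all genes called in these fits are not given here. The changes in count cannot be read as particular to these genes. The part of the other cell types in the result was not tested further.

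**Figure D4:**
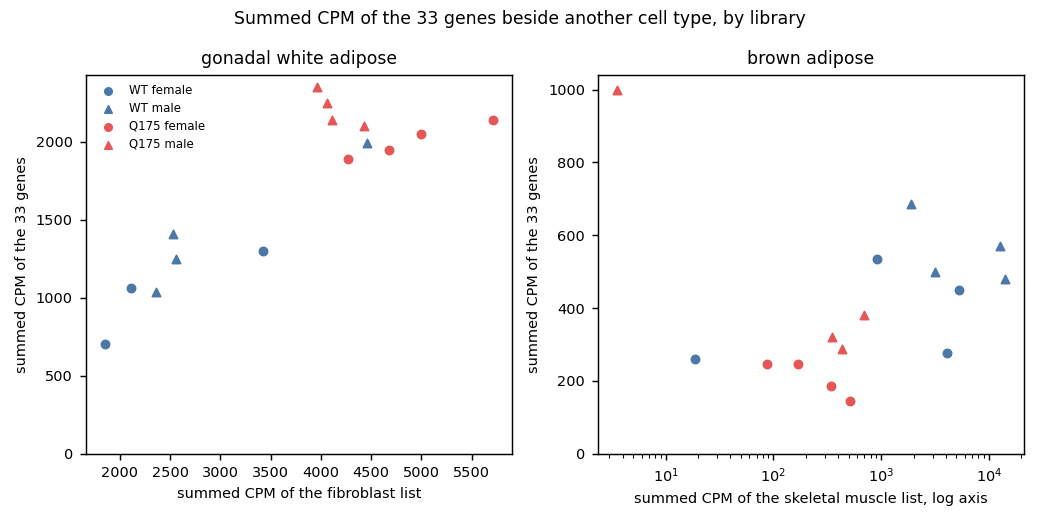
Summed CPM of the 33 genes (vertical axis) in each library beside the summed CPM of the fibroblast list in gonadal white adipose (left) and of the skeletal muscle list in brown adipose (right, log axis). In gonadal adipose WT male 3 lies among the Q175 libraries at 1990 CPM, and in brown adipose Q175 male 4 lies apart at 999 CPM.

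In brain, the gene that changed most was Itgax, the integrin of reactive microglia and dendritic cells. In brainstem it lay at 0.752 to 1.44 CPM (median 1.11) in Q175 and at 0.265 to 0.623 (median 0.363) in WT. The groups did not overlap. The difference was 1.35 ± 0.19 (adjusted p = 4.02e-04), and it rested on 23.5 to 48.6 estimated counts per Q175 library and 8 to 20.5 per WT library.

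Cerebellum gave a like rise: 0.596 to 1.07 CPM (median 0.751) in Q175 and 0.156 to 0.850 (median 0.304) in WT. Of the 8 Q175 libraries 3 were above the WT range, and the difference was 1.04 ± 0.24 (adjusted p = 0.00559). Fitted by sex it was 0.59 in females, not called, and 1.65 in males (adjusted p = 0.0101), and the test of that difference gave an adjusted p of 0.999 (unadjusted 0.0311). In brainstem the 2 sexes gave 1.23, not called, and 1.47 (adjusted p = 0.0483). Corpus callosum gave 0.888 to 3.06 CPM (median 1.91) and 0.769 to 1.81 (median 0.946), a difference of 0.93 ± 0.24 that did not pass (adjusted p = 0.209). In hypothalamus/thalamus the estimate was below 0 (-0.64 ± 0.31, adjusted p = 0.375), and in hippocampus, with 3 to 14.3 counts per library, Itgax was too low to be tested. The tissue-by-genotype test called Itgax (adjusted p = 1.08e-05).

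**Figure D5:**
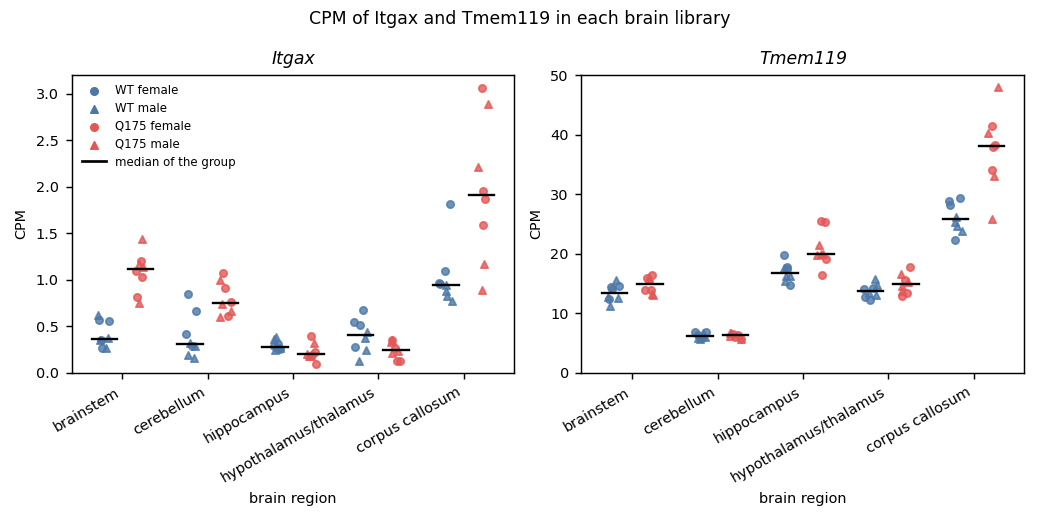
CPM of Itgax (left) and Tmem119 (right) in each library of the 5 brain regions, circles for females, triangles for males, bars at the group medians. Itgax in brainstem separates the genotypes, and Tmem119 is highest in corpus callosum, where 7 of 8 Q175 libraries lie above all WT libraries.

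In brainstem 2 of 33 genes rose, Itgax and Sall1, and none fell (3.07% of all genes called). Sall1 lay at 48.4 to 53.4 CPM (median 50.4) in Q175 and 33.1 to 48.1 (median 43) in WT, without overlap, and the difference was 0.26 ± 0.060 (adjusted p = 0.0202). The count was 1, Itgax, without Q175 female 3, Q175 male 4, WT female 4 or WT male 3. In cerebellum Itgax was the 1 gene of 33 called (16.1% of all genes called). Of 21 disease-associated genes tested in brainstem 1 was called, the chemokine Ccl3, which rose (1.67 ± 0.23). Of 20 in cerebellum 2 were called: the lectin receptor Clec7a rose (0.67 ± 0.20), and Fth1, the ferritin heavy chain, fell (-0.36 ± 0.048). Of 7 genes of lipid-laden macrophages in brainstem, the cholesterol exporters Abca1 (0.50 ± 0.078) and Abcg1 (0.31 ± 0.053) rose, and the fatty acid binding protein Fabp5 fell (-0.33 ± 0.055). Oligodendrocyte genes were lower in the same tissues, 5 of 9 in brainstem and 9 of 9 in cerebellum. They were also lower in hypothalamus/thalamus (5 of 9), where the Itgax estimate was -0.64. In hippocampus and corpus callosum none of the 9 was called. Astrocyte genes were lower too, 3 of 8 in brainstem, 5 of 8 in cerebellum, 2 of 8 in hypothalamus/thalamus and 1 of 8 in hippocampus. The relation of these genes to Itgax was not tested.

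Tmem119 was the 1 gene of 32 tested that was called in hippocampus (4.56% of all genes called). It lay at 16.4 to 25.5 CPM (median 20) in Q175 and 14.8 to 19.8 (median 16.8) in WT, and 5 Q175 libraries were above the WT range. The difference was 0.31 ± 0.084 (adjusted p = 0.0450). It was not called without any 1 of 13 libraries, and it was not called without Q175 females 3 and 4, which an earlier analysis of these files had put apart from the other hippocampal libraries. The 3 libraries whose removal kept the call were Q175 females 1 and 2 and WT female 4. It was called in males alone (adjusted p = 0.00779) and not in females alone.

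In corpus callosum no gene passed (0 of 33, with 0.0544% of all genes called). All 33 estimates were above 0, with a median of 0.36 against 0.00 for all genes. They come from the same libraries, so the 33 signs are not independent. Other lists were one-sided there too: 9 of 9 fibroblast and 8 of 8 endothelial estimates were above 0, and 8 of 8 excitatory neuron estimates below 0. By unadjusted p under 0.05, 20 of 33 were past the threshold, and 19% of all genes were. Tmem119 lay at 25.8 to 48 CPM (median 38.1) in Q175 and 22.3 to 29.4 (median 25.8) in WT. Of the 8 Q175 libraries, 7 were above the WT range, with a difference of 0.52 ± 0.10 (adjusted p = 0.171). DESeq2 called 2 of the 33, Tmem119 (adjusted p = 0.00299) and Itgax (adjusted p = 0.0314), both higher, with 0.913% of all genes called higher.

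The estimates there were uneven between genes, also within the homeostatic group, where Tmem119 gave 0.52. No test compared the roles. C1qa, C1qb and C1qc gave 0.48, 0.43 and 0.41, Olfml3 0.49, Irf8 0.41 and Fcgr3 0.38. Fcrls (0.01 ± 0.14), Gpr34 (0.05 ± 0.075) and P2ry12 (0.06 ± 0.077), homeostatic genes like Tmem119 and Olfml3, were near 0. Mrc1 (0.81 ± 0.35), Cd163 (0.70 ± 0.30), Lyz2 (0.70 ± 0.29) and Lgals3 (0.71 ± 0.29) had high estimates with wide errors. The summed CPM of fibroblast transcripts was 75.5 to 934 in Q175 libraries and 90.1 to 187 in WT, and that of excitatory neuron transcripts 362 to 2440 and 1170 to 3240. With those sums as a term the median of the 33 genes was 0.17 and 0.24, and none was called with either. Their part in the estimates was not tested further.

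In hypothalamus/thalamus no gene was called (0 of 33, with 0.574% of all genes called), 1 had an unadjusted p under 0.05 (13.7% of all genes did), and the median was 0.03. That gene was Lgals3, at 0.996 to 2.37 CPM (median 1.26) in Q175 and 0.675 to 1.53 (median 0.944) in WT, a difference of 0.56 ± 0.21 (adjusted p = 0.273).

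The 5 regions were averaged to 1 value per animal, the log2 CPM, and compared between 8 and 8 animals with limma. Of the 33 genes, 4 rose and none fell (4.68% of all genes called), and 32 estimates were above 0, with a median of 0.11 against -0.00 for all genes. These estimates come from the same animals and are not independent. At an unadjusted p under 0.05 stood 14 of 33, and 20% of all genes.

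Tmem119 averaged 3.80 to 4.19 log2 CPM (median 4.02) in Q175 animals and 3.64 to 3.89 (median 3.81) in WT, a difference of 0.21 ± 0.049 (adjusted p = 0.0241). Itgax averaged -0.68 to -0.26 (median -0.65) against -1.52 to -0.45 (median -0.99), a difference of 0.45 ± 0.11 (adjusted p = 0.0347). The groups overlapped for both. Lgals3 (0.33 ± 0.089, adjusted p = 0.0417) and C1qa (0.19 ± 0.053, adjusted p = 0.0481) were the other called genes, also with overlap. Cx3cr1, P2ry12 and Csf1r gave 0.02 ± 0.051, 0.04 ± 0.042 and 0.04 ± 0.035. Without 1 animal in turn the count of called genes ran from 0 to 5, and it was 0 without 1 Q175 male or 1 WT male.

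From the lists, 3 of 22 disease-associated genes tested rose over the brain mean: Cst7 (0.62 ± 0.12), a cystatin of reactive microglia, B2m (0.22 ± 0.060) and Ctsz (0.13 ± 0.037). In the signalling list the kinase Lyn rose (0.14 ± 0.037), and of 18 further homeostatic genes Rnase4 and Selplg rose. None of 11 resident macrophage genes, 9 cytokine genes or 4 monocyte genes was called. Over the same means, 5 of 9 oligodendrocyte and 3 of 8 astrocyte genes fell.

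The other tissues gave few or no calls. In skin 1 of 32 genes rose (6.53% of all genes called): Lgals3, at 800 to 1080 CPM (median 895) in Q175 and 641 to 837 (median 725) in WT, a difference of 0.30 ± 0.082 (adjusted p = 0.0471). Of the 8 Q175 libraries 6 were above the WT range. Lgals3 was not called without any 1 of 11 of the 14 libraries, nor in either sex alone. Tmem119 was called as lower without WT female 1 (-1.0) or WT male 3 (-0.96). Keratinocyte transcripts gave a sum of 28400 to 37400 CPM in Q175 and of 11400 to 24700 in WT, and with that sum as a term no gene was called.

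In intestinal adipose no gene was called (0 of 32, with 0% of all genes called, and 0 with an unadjusted p under 0.05). Lgals3 (-0.58 ± 0.35, adjusted p = 0.666) and P2ry12 (0.38 ± 0.24, adjusted p = 0.668) had the smallest p, and their groups overlapped. In gastrocnemius no gene was called (0 of 30, 0.0213% of all genes called, 2 with an unadjusted p under 0.05). There 25 estimates, all from the same libraries, were below 0. Itgax there was 0.165 to 0.400 CPM in Q175 and 0.288 to 0.793 in WT (-0.76 ± 0.21, adjusted p = 0.560), and Ctss gave -0.33 ± 0.15 (adjusted p = 0.778). In heart no gene was called (0 of 33, 0.0549% of all genes called, 2 with an unadjusted p under 0.05), and Ptprc (-0.33 ± 0.095, adjusted p = 0.318) and Olfml3 (0.15 ± 0.059, adjusted p = 0.538) had the smallest p.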

How the data were processed

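PolyA RNA of 173 libraries from 11 tissues of 16 mice was analysed. Per the submitters' processing notes, CASAVA 1.8.2 was used. For the aligner, counting program, strand setting and genome build, the entry is: not given in the sources used here. The authors deposited estimated counts per gene (16.6% of values are not whole numbers) and FPKM values, which the authors scaled to gene length and library total. Counts were rounded for the tests.

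Each tissue was tested in edgeR 4.0.16 (TMM, filterByExpr, robust quasi-likelihood, sex as a term). Brain means per animal were tested in limma 3.58.1 with trend, on log2 CPM. WT tissue contrasts and tissue-by-genotype terms were tested in edgeR with the animal as a block. Alternatives were DESeq2 1.42.0, RLE factors, no low-count filter, no sex term, a replicate block, log2 FPKM plus 0.1 or plus 1, removal of the trend with gene length, and leaving out each library. Terms for summed transcripts of other cells and fits by sex were chosen after the data were seen. R 4.3.3, pandas 2.3.3 and matplotlib 3.10.9 were used. The tests were tried on simulated data with 200 changed genes.

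The 33 genes and all lists were chosen with earlier results of these data known. At most 6 called genes per tissue were named with values by smallest p, or 2 where none was called. Others were described by group, and list genes by the 3 smallest p. Genes given only with a level or estimate beyond this rule, in gonadal adipose, corpus callosum and the brain mean, were chosen after their values were seen. Precision is limited by depth, 28 to 48 M counts per library. The p-values of genotype within a tissue and for the brain mean measure the spread between animals. Those of the WT tissue contrasts and the tissue-by-genotype terms, with the animal as a block, measure the spread left within animals across tissues. Antisense or overlapping genes cannot be told apart from the genes named. Promoters are from the RefSeq table of GRCm38.p6. One gene of the signalling list is not reported here.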

Additional observations from a re-analysis of the deposited data

Results flagged for a closer look

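In 14 of 74 groups of libraries checked, 1 library lay far from the rest of its group (Dixon's test), where chance gives about 1 group in 20. The groups share animals, so the 14 are not independent of each other. In brown adipose these were WT female 4 for Fcrls (3.93 CPM, the others 5.53 to 6.71) and Q175 male 4 for the summed 33 genes (999 CPM, the others 145 to 382). In gonadal adipose they were WT male 3 for Itgam (47 CPM) and Q175 male 1 for Olfml3 (56 CPM). In intestinal adipose they were WT female 2 for Lgals3 (256 CPM), and Q175 male 2 for the summed genes (2330 CPM, the others 4730 to 6880), for Lgals3 (109 CPM) and for P2ry12 (8.78 CPM). The summed genes were highest in Q175 female 2 in brainstem (684 CPM) and in WT female 4 in hippocampus (651 CPM), and lowest in Q175 male 3 in skin (1600 CPM). Itgax was highest in WT female 2 both in corpus callosum (1.81 CPM) and in gastrocnemius (0.793 CPM), and Olfml3 lowest in WT male 4 in heart (8.32 CPM). By the library names, the flagged WT females of brown adipose, intestinal adipose, hippocampus, corpus callosum and gastrocnemius are 1 animal. The flagged Q175 males of brown and intestinal adipose are also 1 animal, and those of gonadal adipose and skin are another.

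The genotype effect differed between tissues for 22 of the 33 genes by edgeR's test of the tissue-by-genotype terms, which called 45.4% of all genes. The adjusted p-values of surface receptors were 1.31e-06 for Fcgr3, 1.08e-05 for Itgax, 1.55e-05 for Itgam and 0.0140 for Cd14. Those of homeostatic genes were 4.11e-09 for Olfml3, 9.59e-06 for P2ry12, 9.10e-05 for Fcrls, 0.00387 for Gpr34, 0.00699 for Tmem119, 0.0135 for Sall1, 0.0169 for P2ry13 and 0.0249 for Siglech. The C1q genes gave 7.26e-05 (C1qa), 1.45e-04 (C1qb) and 1.07e-04 (C1qc), and the tissue macrophage genes 2.43e-04 (Mrc1), 4.15e-04 (Adgre1) and 2.06e-04 (Cd163). Csf1r gave 8.63e-06, Tyrobp 0.0445, Lyz2 0.00735 and Cd68 0.0131.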

How the results depend on the processing

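The genes given with full values by tissue or for the brain mean kept their direction under the alternatives to the settings and without single libraries or animals. Among genes given only with an estimate, which were not followed through these, fits of males alone turned Tmem119 (-0.26) and Cd14 (-0.05) in gonadal adipose and Gpr34 (-0.05) and P2ry12 (-0.01) in corpus callosum, and fits of females alone turned Aif1 (0.12) and Trem2 (0.11) in gonadal adipose and Fcrls (-0.04) in corpus callosum. The count of called genes stayed within 1.5 times in gonadal adipose (18 to 25 without single libraries, 20 to 27 with other settings), cerebellum (apart from 0 in females alone), the tissue levels and the tissue-by-genotype test, and at 0 in intestinal adipose, hypothalamus/thalamus, gastrocnemius and heart. In brown adipose (5) it was 9 with DESeq2, 3 without the filter, 2 without the sex term, 1 with the replicate block (Fcrls), 2 to 12 without single libraries, and, with alternatives added after seeing the data, 0 in females, 2 in males and 0 with the muscle term. In brainstem (2) it was 1 with the replicate block, 0 in females, 1 in males and 1 to 2 without single libraries. In hippocampus (1) it was 0 without the filter, 0 without the libraries that stand apart, 0 in females and 0 to 1 without single libraries. In corpus callosum (0) it was 2 with DESeq2 and 0 to 1 without single libraries (1, Tmem119, without Q175 male 4). In skin (1) it was 4 with DESeq2 (Lgals3 and P2ry13 higher, Tmem119 and Cd14 lower), 0 without the sex term, 0 with the replicate block, 2 with the length trend removed, 0 to 2 without single libraries, 0 in females, 0 in males and 0 with the keratinocyte term. For the brain mean (4) it was 8 on log2 FPKM plus 0.1, 1 without the filter, 2 without the sex term and 0 to 5 without single animals. In gonadal adipose the alternatives added after seeing the data gave 13 in females, 2 in males, 4 with the adipocyte term and 0 with the fibroblast term, against 24. Fits of 1 sex hold fewer libraries, and shares of all genes called are not given beside these counts.

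The replicate numbers of the titles do not name shared animals. Of 85 same-numbered pairs, 31 had deviations correlated over 0.1, in no tissue all of them. The replicate block left 21 called genes in gonadal adipose. No paired analysis was possible for the brain mean because animals carry no replicate number of their own. Itgax in brain rests on few counts, and in hippocampus it did not pass the low-count filter.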
